A study of Homo sapiens with 8 samples.

Results

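The zona pellucida genes ZP1, ZP2, ZP3 and ZP4 were followed in A375 cells, an established human metastatic melanoma cell line. Members were the rows of the count table whose symbol was ZP1, ZP2, ZP3 or ZP4, which gave 4 of 60710 genes. The group was chosen by the ZP4 counts of the same TNF and NT libraries, so the levels of the 4 genes in them are given as a description, with no test. The parental cells were seeded, and from the next day were either exposed to 50 ng/mL human recombinant TNF for 24 hours (TNF, n = 4) or left without TNF (NT, n = 4) in DMEM with serum. The libraries come from 4 independent experiments with a single cell line, and polyadenylated RNA was sequenced.

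The zona pellucida is the glycoprotein coat of the oocyte. ZP1, ZP2, ZP3 and ZP4 encode its secreted subunits, which polymerise into filaments through a shared stretch called the ZP module. ZP3 is a building block of every filament repeat, ZP2 is the subunit that sperm recognise and that the egg protease ovastacin cleaves after fertilisation, and ZP1 crosslinks filaments. ZP4 is close to ZP1 in sequence and is a pseudogene in the mouse. The genes are known for expression in growing oocytes, where the transcription factor FIGLA activates them in the mouse, and not for expression in the melanocyte lineage.

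The TNF libraries held 33317454 to 43125094 counts and the NT libraries 30989787 to 44373296. All 6 genes of a TNF response check (NFKBIA, TNFAIP3, ICAM1, CXCL8, BIRC3 and TRAF1) rose with TNF (edgeR, adjusted p under 0.05). Over all 16186 genes tested, 14.5% rose. Of 9 melanocyte lineage markers, SOX10 was high (1177 ± 86.2 CPM in TNF and 1025 ± 53.9 CPM in NT libraries, SD, n = 4 each) and MITF was at 22.0 ± 2.44 CPM in TNF and 21.0 ± 1.24 CPM in NT libraries (SD, n = 4 each), while the pigment enzyme genes TYR, DCT and TYRP1 had 1, 4 and 3 counts over the TNF libraries together and 0, 21 and 10 over the NT libraries. These pigment markers were nearly absent from both groups. S100B, a calcium-binding protein of the lineage, fell to 3.05 ± 0.421 CPM in TNF, against 17.3 ± 3.93 CPM in NT libraries (SD, n = 4 each; edgeR adjusted p = 6.77e-06). Ribosomal, 7SK and 7SL RNA took 0.417% to 0.519% of counts in TNF replicate 4 and NT replicates 2 and 4, and 0.0690% to 0.107% in the other libraries. For the 4 NT samples, the single-sample table equalled the column of another date in the table of the series, and dates were taken from the column names of the series table, which bears on comparisons within an experiment but not on the groups.

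ZP4 (ENSG00000116996.9) was abundant in the TNF libraries and close to the limit of detection in the NT libraries. It had 2933, 4764, 3445 and 3407 counts in TNF replicates 1 to 4, against 10, 6, 5 and 4 counts in NT replicates 1 to 4. The groups did not overlap, and no NT library was without a ZP4 count. In CPM, which are counts relative to the TMM-normalized library size, ZP4 was at 84.2, 146, 79.8 and 110.2 CPM in TNF replicates 1 to 4, against 0.214, 0.164, 0.157 and 0.127 CPM in NT replicates 1 to 4. The mean was 105 ± 30.6 CPM in TNF and 0.165 ± 0.0360 CPM in NT libraries (SD, n = 4 each). TNF replicate 2 was the highest of its group and TNF replicate 3 the lowest. The fitted log2 fold change was 9.24 (standard error 0.30).

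The size of the ZP4 difference is limited by the few counts in NT cells. The 25 counts of the 4 NT libraries together correspond to 0.170 CPM, with an exact 95% Poisson interval from 0.110 to 0.252 CPM. The TNF libraries together held 14549 counts, and the ratio of the summed levels was 603, with an exact 95% interval from 409 to 933. These intervals were computed from counts pooled over the 4 libraries of each group, so they leave out variation between libraries. They cover counting error only and are too narrow as a range for new experiments. Reads were counted without molecular identifiers. Within an experiment the TNF library was 394, 892, 507 and 868 times the NT library of the same date in replicates 1 to 4. Since the groups did not overlap, any pairing of libraries would give the same direction. The ratio of replicate 1 lay below the lower limit of 409. The NT level was 0.254%, 0.112%, 0.197% and 0.115% of the TNF level of the same date in replicates 1 to 4. Whether these few NT counts came from NT cells was not tested. The bulk libraries cannot tell a low level in all cells from a high level in a few.

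Among the genes of the table ZP4 held position 6 of 16186 by fitted log2 fold change. It passed the filter on low counts only through its TNF libraries. Scaled by transcript length, ZP4 was at 54.5 ± 15.8 CPM per kb in TNF and at 0.0858 ± 0.0187 CPM per kb in NT libraries (SD, n = 4 each). That was position 1458 among 16128 genes with a length in TNF cells and position 15743 in NT cells, and 0 other tested genes had both a TNF level as high and an NT level as low on this scale. On the CPM scale, 121 other tested genes had an NT mean at or below that of ZP4. SERPINB2, which encodes a plasminogen activator inhibitor, was the only gene among them with a TNF mean above that of ZP4. Its mean was 190 ± 175 CPM (SD, n = 4), and TNFRSF9 came next at 18.1 CPM. SERPINB2 was below ZP4 in TNF replicates 1 (72.8 against 84.2 CPM) and 3 (78.9 against 79.8 CPM).

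**Figure D1:**
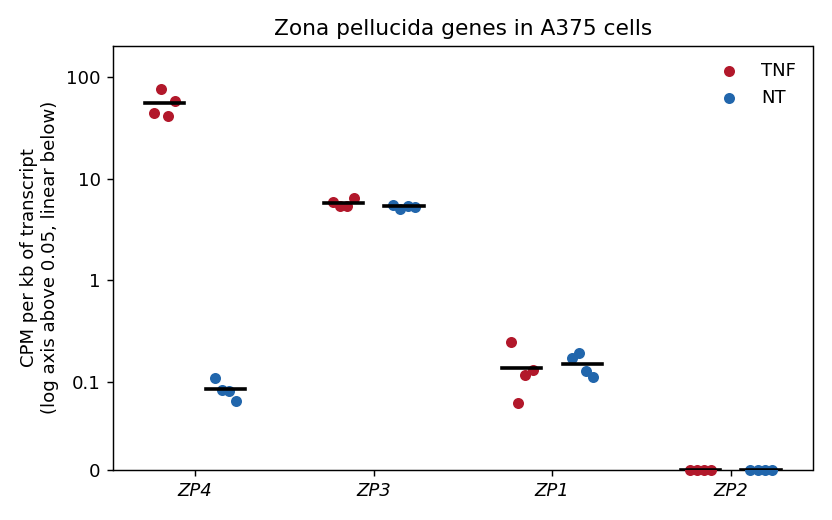
Level of each zona pellucida gene in CPM per kb of transcript (y axis, logarithmic above 0.05 and linear below) in TNF and NT libraries of A375 cells. Points are libraries and black bars are group means (n = 4 each): ZP4 averages 54.5 in TNF and 0.0858 in NT libraries, ZP3 lies between 5.03 and 6.38 in all libraries, ZP1 stays below 0.25 and ZP2 is at 0.

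The other zona genes did not show this pattern. ZP3 (ENSG00000188372.15) had 265.92, 227.66, 303.14 and 256.57 expected counts in TNF replicates 1 to 4, against 338.41, 239.7, 224 and 216.53 in NT replicates 1 to 4. The groups overlapped. Its mean was 7.49 ± 0.623 CPM in TNF and 6.93 ± 0.284 CPM in NT libraries (SD, n = 4 each), with a fitted log2 fold change of 0.11 (standard error 0.11), which was 0.014 when the 3 libraries richer in ribosomal RNA were dropped. ZP1 (ENSG00000149506.11) had 17, 4, 10 and 8 counts in TNF replicates 1 to 4, against 16, 14, 8 and 7 in NT replicates 1 to 4. These too overlapped, at 0.275 ± 0.153 CPM in TNF and 0.300 ± 0.0752 CPM in NT libraries (SD, n = 4 each), and ZP1 had too few counts to pass the filter. ZP2 (ENSG00000103310.11) had 0 counts in all 8 libraries, which allows up to 0.0212 CPM in TNF and 0.0205 CPM in NT cells at 3 counts over each group. Of the 4 zona genes, 2 passed the filter and 1, ZP4, had all TNF libraries above all NT libraries. Among all genes tested, 15.6% had all TNF libraries above all NT libraries. ZP4 was chosen for that difference, so the count is a description.

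The order of the zona genes by level per length thus differed between the groups. In TNF cells ZP4 stood first at 54.5 CPM per kb, followed by ZP3 at 5.75 ± 0.478, ZP1 at 0.140 ± 0.0780 and ZP2 at 0, and no neighbours in this order overlapped. In NT cells ZP3 stood first at 5.32 ± 0.218 CPM per kb, followed by ZP1 at 0.152 ± 0.0382, ZP4 at 0.0858 ± 0.0187 and ZP2 at 0 (SD, n = 4 each). The NT levels of ZP1 and ZP4 were nearly adjacent, with 0.113 CPM per kb in the lowest library of ZP1 and 0.111 in the highest of ZP4, and they rest on 4 to 16 counts per library.

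The other zona genes lie on other chromosomes than ZP4 (GRCh38, GENCODE release 44). ZP1 spans 60867542 to 60875693 on the plus strand of chromosome 11 with 12 exons, ZP2 spans 21197450 to 21214510 on the minus strand of chromosome 16 with 19 exons, and ZP3 spans 76397518 to 76442071 on the plus strand of chromosome 7 with 8 exons.

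Sequence sharing between transcripts in the same orientation touched ZP3 but not ZP4. The search did not cover genes on the opposite strand, and the overlap of ZP4 with such a gene is described below. Of 1879 windows of 50 bases in the canonical ZP4 transcript, 0 occurred in a transcript of another gene, and likewise 0 of 1919 in ZP1 and 0 of 2246 in ZP2 (GENCODE release 44). The ZP4 counts were whole numbers in all 8 libraries. ZP3 shared 31.4% of its windows with POMZP3, a gene on the same chromosome that joins a part of the nucleoporin gene POM121 to a part of ZP3, and its expected counts were whole in 1 of 8 libraries. The aligned coding parts of ZP3 and POMZP3 were identical at 328 of 333 bases. The window below, from coding bases 939 to 1018 of ZP3 and 453 to 532 of POMZP3, is the stretch of 80 bases in which they differ most, and it shows how few positions can assign a read to either gene (differing bases in capitals, reference sequence, 5′ to 3′):
ZP3: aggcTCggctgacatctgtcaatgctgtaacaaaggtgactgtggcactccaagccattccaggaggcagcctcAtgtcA
POMZP3: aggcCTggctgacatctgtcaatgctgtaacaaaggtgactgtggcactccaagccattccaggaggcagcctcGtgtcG

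POMZP3 was expressed above ZP3 in every library. It averaged 40.9 ± 5.71 CPM in TNF and 41.5 ± 2.71 CPM in NT libraries (SD, n = 4 each), a log2 difference of -0.02 ± 0.10 (SE; edgeR adjusted p = 0.926). ZP3 took 14.5% to 16.6% of the joint counts of ZP3 and POMZP3 in TNF libraries and 13.4% to 15.9% in NT libraries. These ranges overlapped. With libraries paired by the dates of the series columns, the share was higher in the TNF library of each of the 4 experiments. The share was 16.4%, 14.6%, 16.6% and 14.5% in TNF replicates 1 to 4, against 15.9%, 14.0%, 14.2% and 13.4% in NT replicates 1 to 4. The level of ZP3 is therefore uncertain, since the estimation of counts divides reads between near-identical stretches.

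**Figure D2:**
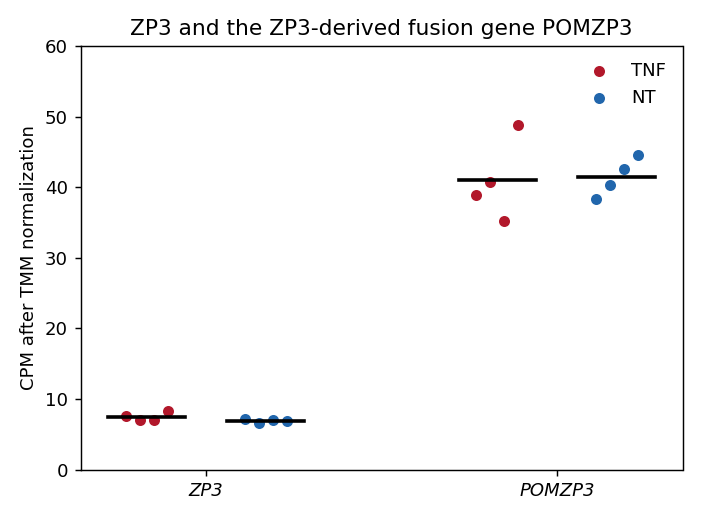
Expression of ZP3 and POMZP3 in CPM after normalization (y axis) in TNF and NT libraries. Points are libraries and black bars are means (n = 4 each): ZP3 averages 7.49 CPM in TNF and 6.93 CPM in NT libraries, POMZP3 40.9 and 41.5 CPM, and the groups overlap for both genes.

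The promoters of zona genes are known for E-boxes, the sites bound by basic helix-loop-helix factors such as FIGLA. RefSeq promoter entries were matched for ZP1 and ZP3, and ZP2 and ZP4 were not matched. The 250 bases before the RefSeq start are printed for ZP1 (chr11:60867292-60867541) and ZP3 (chr7:76397272-76397521), both on the plus strand of GRCh38.p14, with each match to CANNTG in capitals. The RefSeq start of ZP3 differs from the GENCODE start given above, so the last 4 bases of its window lie within the GENCODE gene. The motif reads the same on both strands. The 2 promoters are shown because only these zona genes had a matched entry, and the promoter of ZP4 was not examined:
ZP1: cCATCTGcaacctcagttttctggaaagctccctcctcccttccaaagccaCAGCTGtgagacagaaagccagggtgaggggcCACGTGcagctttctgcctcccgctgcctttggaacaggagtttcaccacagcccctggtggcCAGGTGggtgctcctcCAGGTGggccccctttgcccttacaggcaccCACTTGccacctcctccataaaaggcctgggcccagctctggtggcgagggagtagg
ZP3: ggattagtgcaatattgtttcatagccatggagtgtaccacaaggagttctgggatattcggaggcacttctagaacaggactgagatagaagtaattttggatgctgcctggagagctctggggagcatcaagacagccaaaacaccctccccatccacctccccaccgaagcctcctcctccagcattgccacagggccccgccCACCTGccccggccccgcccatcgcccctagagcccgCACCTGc

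ZP1 had 6 matches, 57 to 249 bases from the start, and ZP3 had 2, at 7 to 44 bases. A second RefSeq entry for ZP1, whose window runs from 60870243 to 60870492 on chromosome 11, held 2 matches, at 135 to 156 bases. Matches are frequent, as 61.8% of 35116 promoters of this length held at least 1. FIGLA itself had 0 counts in all libraries, and so did NOBOX, a homeobox regulator of oocyte genes.

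Genes that accompany the zona genes in oocytes were examined next. In the comparison of TNF with NT libraries, 14.5% of 16186 genes were higher and 9.9% lower with TNF (edgeR, adjusted p under 0.05). These are 2345 higher and 1603 lower genes, where scaling by upper quartiles gave 2045 and 2196 and library totals gave 1925 and 2514. Of all 60710 genes, 28855 had 0 counts in all libraries. Of 12 oocyte regulators, 3 had 0 counts in all libraries, 5 had enough counts to be tested, 2 rose, 1 fell and 2 did not pass the test. The median log2 fold change of the tested genes was 0.57, against -0.0035 over all genes. LHX8, a LIM homeobox factor of early oocytes, was at 2.57 ± 0.809 CPM in TNF and 0.983 ± 0.416 CPM in NT libraries (SD, n = 4 each), a log2 difference of 1.36 ± 0.35 (SE; edgeR adjusted p = 0.0157). Its call was lost without NT replicate 2 (log2 difference 1.31, adjusted p = 0.0513) and when the 3 libraries richer in ribosomal RNA were dropped (log2 difference 1.27, adjusted p = 0.0763). BNC1, a zinc finger factor of germ cells and keratinocytes, was at 7.48 ± 1.04 CPM in TNF and 3.71 ± 0.255 CPM in NT libraries (SD, n = 4 each), a log2 difference of 1.01 ± 0.14 (SE; edgeR adjusted p = 0.000385). SOHLH2, a basic helix-loop-helix factor of germ cells, fell to 18.2 ± 1.71 CPM in TNF, against 27.1 ± 2.02 CPM in NT libraries (SD, n = 4 each), a log2 difference of -0.57 ± 0.09 (SE; edgeR adjusted p = 0.00117). TAF4B, a subunit of the general transcription machinery that is enriched in gonads, had a log2 fold change of 0.06 and CPEB1, an RNA-binding regulator of oocyte translation, of 0.57 (edgeR adjusted p = 0.626 and 0.0569). The call of CPEB1 depended on the fit: it passed when experiments were blocked by date (log2 difference 0.57, edgeR adjusted p = 0.00566), in DESeq2 (adjusted p = 0.0276), without TNF replicate 4 (adjusted p = 0.0199), without NT replicate 3 (adjusted p = 0.0329) and without both libraries of replicate 4 (adjusted p = 0.0368). BMP15, an oocyte growth factor, had 0 counts, and its partner GDF9 averaged 0.120 ± 0.0768 CPM in TNF and 0.105 ± 0.0302 CPM in NT libraries (SD, n = 4 each).

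Of 23 products of the oocyte itself, 8 had 0 counts in all libraries, among them NLRP5, OOEP, KHDC3L and PADI6. Those named belong to the subcortical maternal complex of the egg, as does TLE6, which was detected. A lack of counts is no mark of this list, since 28855 of all 60710 genes had 0 counts. Only 3 of the 23 had enough counts to be tested, TLE6, NLRP2 and GPR3, a receptor that holds oocytes in meiotic arrest. GPR3 was at 15.5 ± 2.85 CPM in TNF and 15.3 ± 2.36 CPM in NT libraries (SD, n = 4 each), while NLRP2 had 213 expected counts over the TNF and 219.99 over the NT libraries and TLE6 had 121 over the TNF and 141 over the NT libraries. Neither edgeR nor DESeq2 called any of the tested genes (0 of 3), 0 of 3 had an unadjusted p under 0.05 in edgeR, and the log2 fold changes were -0.13 for TLE6, -0.01 for NLRP2 and 0.02 for GPR3. Over all genes tested, edgeR called 24.4% in either direction, so 0 of 3 says little about the list. The granulosa cell markers FOXL2 and FSHR had 0 counts in all libraries, and the summed level of the 5 granulosa markers was 2.87 to 4.70 CPM in TNF and 3.69 to 5.24 CPM in NT libraries, most of it AMH.

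Several partners of the zona in fertilisation were not detected. Of 14 genes, 6 had 0 counts, including the sperm proteins ZPBP, ZPBP2, ACR and ZAN that bind or act on the zona. A lack of counts was common, at 28855 of all 60710 genes. ASTL, the ovastacin gene, had 1 count over the TNF and 3 over the NT libraries, and IZUMO1R, the egg receptor JUNO, had 0 and 2. Over all genes tested, 24.4% were called in either direction. CD9, a tetraspanin of the egg membrane that many other cell types carry, was the only called gene among the 3 of this list that were tested. It was at 134 ± 21.3 CPM in TNF and 65.3 ± 4.77 CPM in NT libraries (SD, n = 4 each), a log2 difference of 1.04 ± 0.11 (SE; edgeR adjusted p = 5.77e-05). CD81, its close relative, had a log2 difference of -0.05 (edgeR adjusted p = 0.740).

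Of 13 other genes that carry a ZP module, 4 were tested, 1 rose and 0 fell. Over all genes tested, 14.5% rose and 9.9% fell. TGFBR3, which encodes the TGF-beta co-receptor betaglycan, was at 5.98 ± 0.285 CPM in TNF and 4.10 ± 0.233 CPM in NT libraries (SD, n = 4 each), a log2 difference of 0.54 ± 0.12 (SE; edgeR adjusted p = 0.00726). When the 3 libraries richer in ribosomal RNA were dropped its log2 difference was 0.52 and its adjusted p 0.0503. ENG, the related co-receptor endoglin, was at 172 ± 9.59 CPM in TNF and 179 ± 14.2 CPM in NT libraries (SD, n = 4 each; edgeR adjusted p = 0.655). POMZP3, described above, and TGFBR3L, a relative of TGFBR3 at 3.54 ± 1.09 CPM in TNF and 3.44 ± 0.259 CPM in NT libraries (SD, n = 4 each; edgeR adjusted p = 0.915), did not pass the test either. The genes too low to be tested included UMOD, which encodes the urinary protein uromodulin and had 6 counts over the TNF and 0 over the NT libraries, and TECTB and GP2, which had 0 in all.

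Zona proteins are folded in the endoplasmic reticulum and released from their membrane anchor at a site for furin-like proteases. Of 8 genes for such chaperones and convertases, all tested, 1 rose, 1 fell and 6 did not pass the test. That share of calls was close to the 24.4% called over all genes tested. FURIN was at 242 ± 26.2 CPM in TNF and 159 ± 6.91 CPM in NT libraries (SD, n = 4 each), a log2 difference of 0.61 ± 0.09 (SE; edgeR adjusted p = 0.000457). PCSK5, a convertase of the same family, fell to 1.58 ± 0.260 CPM in TNF, against 4.05 ± 0.216 CPM in NT libraries (SD, n = 4 each), a log2 difference of -1.36 ± 0.17 (SE; edgeR adjusted p = 0.000175). When experiments were blocked by date, the chaperone genes PDIA3 and CALR passed as well (log2 fold changes 0.22 and 0.18, edgeR adjusted p = 0.0120 and 0.0355). Without TNF replicate 4, 5 of the 8 genes were called, as many as when the 3 libraries richer in ribosomal RNA were dropped.

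**Figure D3:**
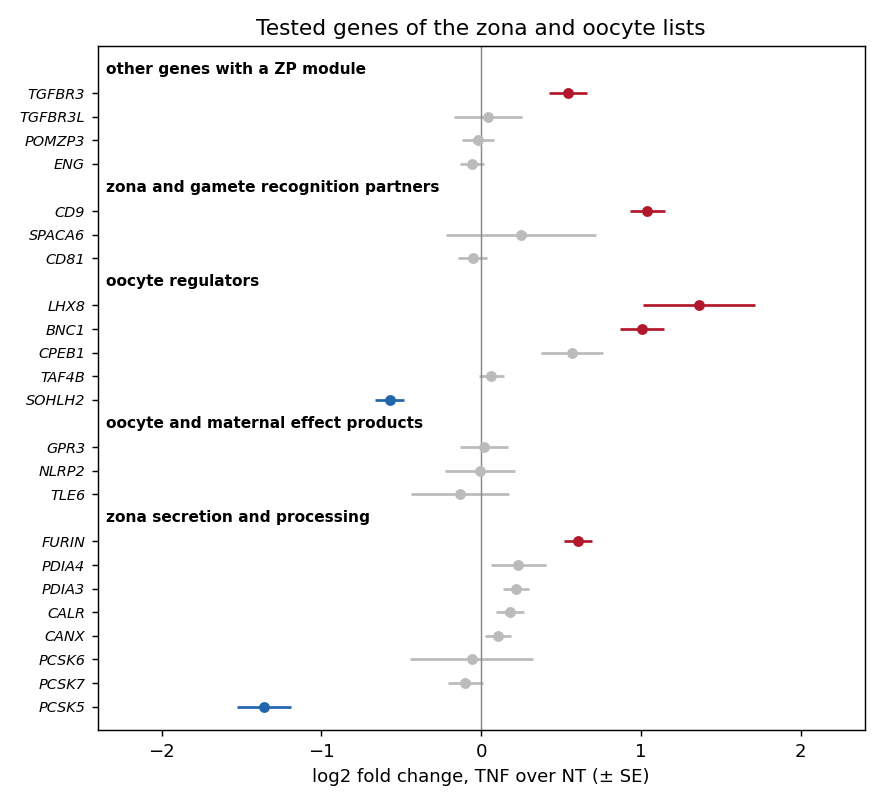
Log2 fold change of TNF over NT (x axis) for the tested genes of 5 lists related to the zona and the oocyte (y axis). Points are edgeR estimates with standard errors, red where the gene rose, blue where it fell and grey where it did not pass an adjusted p of 0.05: LHX8 (1.36), CD9 (1.04) and BNC1 (1.01) lie highest and PCSK5 (-1.36) lowest.

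ZP4 lies on the minus strand of chromosome 1 between 237877864 and 237890922 (GRCh38, GENCODE release 44), with 12 exons in the canonical transcript. The table held 15 other genes within 500 kb, of which 12 had 0 counts in all libraries and 1 was tested. That gene, RYR2, which encodes the calcium release channel of heart muscle, ends 43876 bases from ZP4 on the opposite strand. It had 1450, 1657, 1767 and 1534 counts in TNF replicates 1 to 4, against 330, 240, 296 and 279 in NT replicates 1 to 4. Every TNF library was above every NT library. RYR2 rose to 45.8 ± 5.22 CPM in TNF, against 7.94 ± 1.35 CPM in NT libraries (SD, n = 4 each), a log2 difference of 2.53 ± 0.13 (SE; edgeR adjusted p = 5.83e-07). Its TNF libraries varied less than those of ZP4, and its NT level was well above the detection limit.

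The long noncoding RNA AL359924.1 overlaps ZP4 on the opposite strand. It had 0, 8, 3.73 and 4.89 expected counts in TNF replicates 1 to 4 and 0 in all NT libraries, too few to be tested. Its highest value was in the TNF library with the highest ZP4 level. The pseudogene AL590396.1 lies within the span of AL359924.1 on the same strand. It had 1, 0, 4.27 and 5.11 expected counts in TNF replicates 1 to 4, against 2, 0, 0 and 1 in NT replicates 1 to 4. Both genes had fractional counts in TNF replicates 3 and 4, so the division of reads between them is uncertain. Of 2474 exonic bases of ZP4, 84 also lie in exons of AL359924.1. Libraries were prepared with a stranded kit, but whether the counting used strand is not given in the sources used here, so reads of the overlap cannot be assigned with certainty. The counts of ZP4 are far above those of AL359924.1.

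**Figure D4:**
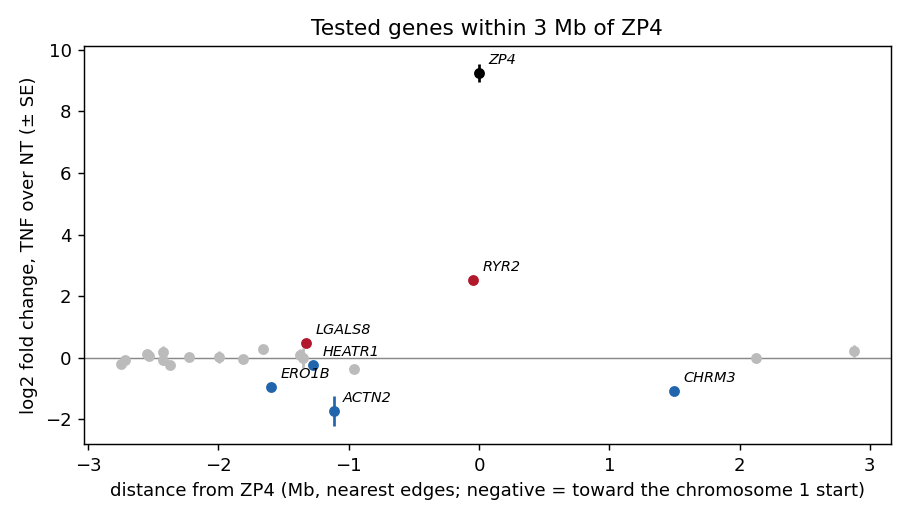
Log2 fold change of TNF over NT with standard error (y axis) for tested genes by distance from ZP4 (x axis, Mb). ZP4 (black, 9.24) and RYR2 (2.53) stand above the rest; red points rose, blue points fell and grey points did not pass an adjusted p of 0.05 in edgeR.

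The genes most like ZP4 over the 8 libraries, by root mean square difference in log2 CPM, were IL32, SERPINB2, CSF2, CCL2 and CTSS. The difference was 0.60 for IL32, a proinflammatory cytokine gene, and 1.08 to 1.26 for the others. IL32 ran from 108 to 121 CPM in TNF and from 0.0629 to 0.381 CPM in NT libraries, so its TNF libraries were closer together than those of ZP4. CTSS, which encodes the lysosomal protease cathepsin S, had its highest TNF level in replicate 2 (228 CPM), as ZP4 did, and its lowest in replicate 3 (145 CPM). SERPINB2, CSF2 (a granulocyte and macrophage growth factor) and CCL2 (a monocyte chemokine) were highest in replicate 4 of both groups, at 446, 70.4 and 99.5 CPM in the TNF library and 0.444, 0.444 and 0.762 CPM in the NT library. ZP4 was not highest in that experiment, and NT replicate 4 was its lowest library. The likeness rests mainly on the difference between the groups, which all these genes share.

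**Figure D5:**
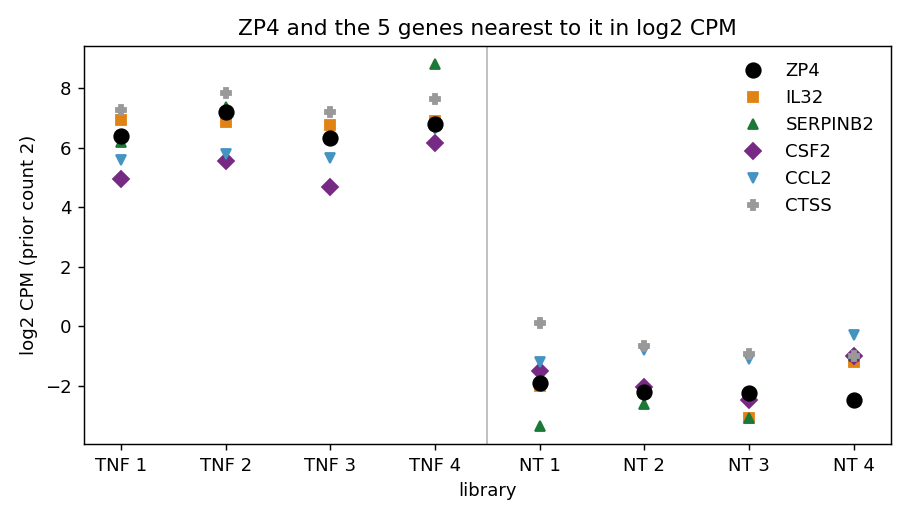
Log2 CPM (y axis, prior count 2) of ZP4 and of the 5 genes nearest to it in 4 TNF and 4 NT libraries (x axis). Each symbol is a gene: ZP4 (black circles) is highest in TNF replicate 2 and lowest in NT replicate 4, where SERPINB2, CSF2, CCL2 and IL32 have their highest NT values.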

How the data were processed

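RNA of A375 cells, TNF or NT, was sequenced in 8 libraries. The authors deposited unnormalized expected counts for each gene, estimated with RSEM 1.2.25 after bowtie2 alignment to the GRCh38 transcriptome (release 97). Here they were rounded, genes with few counts were removed (edgeR's filter, minimum count 10, minimum total 15), TMM factors were computed and treatment was tested in edgeR 4.0.16 by its robust quasi-likelihood F test, with Benjamini-Hochberg adjustment over 16186 genes. DESeq2 1.42.0, run in R 4.3.3, was an alternative, with other scalings and filters, the experiment date as a block, and each library left out. The procedure was tested on simulated data. Log2 CPM used a prior count of 2. Lengths, positions and transcripts came from GENCODE release 44, which is not the release the authors used, and promoters from RefSeq (GRCh38.p14). The gene name table matched 60437 of 60666 gene IDs.

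Replicates were numbered by the date in the sample titles. The series-wide table supplied the counts. For 4 samples (NT) the single-sample file equalled the column of another date of the same treatment. Each library shares the date in its title with a library of the other group, and replicate numbers were taken as pairs. Libraries of the same date deviated together (correlations 0.35, 0.17, 0.24 and 0.46 over 16186 genes). Correlations between libraries of different dates were not computed, so the values cannot tell this pairing from another. Within a group every pair of libraries exceeded sampling noise (chi-square per degree of freedom at least 12.3).

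Members, lists and the naming rule were chosen with earlier results of these data known. Named were the 4 zona genes, POMZP3, tested genes within 500 kb of ZP4, the 5 genes nearest to ZP4 in log2 CPM and, in each list, up to 4 called members with the largest change. Other members were named for their known role or for a count after their values were seen.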

Additional observations from a re-analysis of the deposited data

Results flagged for a closer look

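CD9 stood apart in a single library, TNF replicate 4, where its log2 CPM was 7.38 and that of the other TNF libraries 6.92 to 6.99. It was the only such case in 34 groups of 4 libraries looked at, where 1.7 would be found by chance.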

How the results depend on the processing

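The log2 fold change of ZP4 was 9.24 and stayed between 9.04 and 9.42 under 16 alternatives, which is also its range when each library was left out; it could not be fitted with at least 10 counts in every library, because NT replicates 2 to 4 had 6, 5 and 4. That of ZP3 was 0.014 without the 3 libraries with more ribosomal RNA and 0.06 to 0.14 when a library was left out. For ZP1 the difference in mean log2 CPM was -0.19 and ran from -0.47 to 0.07 when a library was left out, so it has no stable sign; DESeq2 and the block were not run for it, and ZP2, at 0, was not fitted. POMZP3 changed sign without TNF replicate 3 (0.048) and without NT replicate 4 (0.010), ranged from -0.11 to 0.048 when a library was left out, and was called under none of 17 alternatives.

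With the experiment date as a replicate block 3451 genes were higher and 2946 lower, and 4 genes of zona secretion and processing were called in place of 2. The block also added CPEB1 (adjusted p = 0.00566), so that 4 oocyte regulators were called in place of 3, and this count ran from 2 to 4 over all alternatives. Beside CPEB1, PDIA3 and CALR it changed no call in the zona and oocyte lists, and RYR2 was called with it too. The same list gave 5 calls without the 3 libraries with more ribosomal RNA, 4 without both libraries of the fourth experiment, and 2 to 5 when a library was left out; the added genes were PDIA3, CALR and PDIA4. Genes with a ZP module gave 0 calls without the 3 libraries (TGFBR3, log2 difference 0.52, adjusted p = 0.0503), and LHX8 had an adjusted p of 0.0763 there. With no filter, genes within 500 kb of ZP4 gave 2 calls, the added gene being AL359924.1. Scaling by upper quartiles gave 2045 genes higher and 2196 lower, and library totals gave 1925 and 2514. Leaving out both sets of libraries was chosen after seeing the data. Depth limits ZP1, ZP2 and the NT level of ZP4.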

Other observations

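In a window of 3 Mb on either side of ZP4, chosen after the value of RYR2 was seen, 22 other genes were tested, of which 2 rose and 4 fell (edgeR, adjusted p under 0.05; 24.4% of all genes tested were called), with a median log2 fold change of -0.0050. The 22 include 2 entries for TBCE. Besides RYR2, LGALS8, which encodes galectin-8, rose, at 91.3 ± 6.69 CPM in TNF and 65.6 ± 6.44 CPM in NT libraries (SD, n = 4 each; edgeR adjusted p = 0.00245). CHRM3, a muscarinic acetylcholine receptor gene and the nearest tested gene on the other side of ZP4, fell to 10.2 ± 1.17 CPM in TNF, against 21.7 ± 2.56 CPM in NT libraries (SD, n = 4 each), a log2 difference of -1.09 (edgeR adjusted p = 8.36e-05). ERO1B, an oxidase of the endoplasmic reticulum, and HEATR1, a ribosome biogenesis gene, had log2 differences of -0.94 and -0.25 and also fell (edgeR adjusted p = 0.000411 and 0.0167). The remaining gene counted as lower was ACTN2, a muscle actinin, with a log2 difference of -1.73. ACTN2 averaged 0.145 CPM in TNF and 0.510 CPM in NT libraries. It passed the filter on low counts only through its NT libraries, so its difference is given as a description.

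Among markers of other cell types, PECAM1 (endothelium) and KRT5 (keratinocytes) were at 2.30 ± 0.560 and 1.61 ± 0.444 CPM in TNF, against 0.312 ± 0.114 and 0.192 ± 0.0733 CPM in NT libraries (SD, n = 4 each). Over the NT libraries they had 47.84 and 29.59 expected counts, and they passed the filter on low counts only through their TNF libraries. Their differences are therefore given as a description. KRT14, the partner of KRT5, fell to 8.39 ± 1.30 CPM in TNF, against 18.3 ± 2.98 CPM in NT libraries (SD, n = 4 each; edgeR adjusted p = 0.000257). PTPRC (leukocytes), COL3A1 (fibroblasts) and EPCAM (epithelium) had 2, 3 and 0 counts over the TNF libraries and 1, 0 and 9 over the NT libraries. Their part in the ZP4 level was not tested.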
